A study of Mus musculus with 31 samples.

Results

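The 10 genes described here, Stab1, Stab2, Lyve1, Clec4g, Oit3, Fcgr2b, Kdr, Pecam1, Dnase1l3 and Gpr182, mark the sinusoidal endothelial cells of the liver. They were taken by symbol from 2 tables of gene counts, with 10 of 41549 genes in the table of 5-month livers and 10 of 36333 in that of old livers. Liver sinusoidal endothelial cells line the capillaries between plates of hepatocytes. They are perforated by fenestrae, lie on little basement membrane, and clear waste proteins, modified lipoproteins and immune complexes from blood with a set of scavenger receptors. Signals such as VEGF from hepatocytes and the transcription factor GATA4 keep them in this state, and its loss, called capillarization, is known from fibrosis and liver tumours.

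Poly(A) RNA of mouse liver was sequenced in 31 libraries, 21 from animals aged 5 months and 10 from older ones. The series compared livers in which the transcription factor gene Myc, Mlx or both had been deleted with wild type liver, and adenomas that arose after loss of Mlx with old wild type liver. Mlx encodes the partner of MondoA and ChREBP, nutrient-responsive factors that share E-box DNA sites with the MYC network. Wild type animals (WT, strain C57/B6) gave 6 libraries at 5 months. The Myc knockouts (MycKO, 6 libraries), Mlx knockouts (MlxKO, 4) and double knockouts (DKO, 5) carried floxed alleles and Cre-ERT2 at the Rosa26 locus, which is active in most cell types, so recombination is not limited to hepatocytes. The adenoma mice (5 libraries, aged 14, 15 or 17 months) carried Alb_CreERT2 and floxed Mlx, and the albumin driver acts in hepatocytes. The old WT livers (5 libraries) were from C57/B6 mice aged 17 months. All mice, WT included, had tamoxifen injected (75 mg/kg, 5 daily doses) when 28 days old. The 5-month animals were fasted for 14 h and the old ones were not. Since WT carried neither Cre-ERT2 nor floxed alleles by its labels, gene loss and these differences of strain cannot be told apart. By sex, WT and MycKO each had 4 male and 2 female libraries, and MlxKO and DKO had male ones only. The adenomas comprised 4 labelled females and 1 labelled male, and old WT comprised 3 males and 2 females.

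All 10 genes lie on the minus strand, and their positions in the 5-month table (GRCm38) are chr14:31139013-31168641 for Stab1, chr10:86841198-87008025 for Stab2, chr7:110850607-110863239 for Lyve1, chr8:3707064-3720651 for Clec4g and chr10:59422958-59441778 for Oit3. Fcgr2b spans chr1:170958617-170976547, Kdr chr5:75932827-75978458, Pecam1 chr11:106654217-106750628, Dnase1l3 chr14:7964533-7994573 and Gpr182 chr10:127747276-127751732.

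The 5-month libraries held 18226467 to 28476797 counts. Old WT libraries held 16036626 to 18690029 counts and adenoma libraries 34590164 to 37087490. Myc was lower in every MycKO and DKO library (0.492 to 2.61 CPM, counts scaled to library size) than in any WT or MlxKO library (3.61 to 22.2 CPM). Mlx was lower in every MlxKO and DKO library (14.7 to 20.8 CPM) than in any WT or MycKO library (21.4 to 29.0 CPM). WT 2, WT 5 and MycKO 5 stand apart from the other 5-month libraries on a principal component, and values without them are given where they matter. Adenoma 5 is labelled male but had 0 counts over 4 Y-linked genes and 985 CPM of Xist. The sex term of the fits follows the labels, and no fit with adenoma 5 as female was run. Even numbers made up 81.0 to 83.1% of low counts (1 to 19) in adenoma libraries and 42.3 to 44.1% in old WT, and tests with halved adenoma counts are among the alternatives. Summed hepatocyte markers reached 76649 to 153587 CPM at 5 months. The 10 endothelial genes made up 0.0216 to 0.0552% of all counts at 5 months. In the adenomas they made up 0.0146 to 0.0643%, the widest range of any group.

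Upstream sequences were matched for 5 of the 10 genes in RefSeq (GRCm38.p6). They are Stab1, Stab2, Clec4g, Fcgr2b and Kdr; the other members are Lyve1, Oit3, Pecam1, Dnase1l3 and Gpr182. The 250 bases before the RefSeq start are shown for Fcgr2b and Kdr, the members that passed the test in the double knockout, and for Clec4g, which had the most motif matches. All 3 genes lie on the minus strand, and each sequence is written 5′ to 3′ on that strand. Capitals mark matches, on either strand, to the E-box CACGTG, a site of MYC and MLX complexes, to the GATA motif or to the ETS motif, common in endothelial promoters. The GATA motif was searched as AGATAA, with its last base changed as AGATAG, with its first base changed as TGATAA, and with both bases changed as TGATAG. The ETS motif was searched as AGGAAG and, with its first base changed, as CGGAAG. Positions are chr1:170976072-170976321 for Fcgr2b, which lies within the Ensembl gene model of the 5-month table, chr5:75978456-75978705 for Kdr and chr8:3720652-3720901 for Clec4g. The Kdr and Clec4g windows lie within the gene models of the old livers' table.
Fcgr2b: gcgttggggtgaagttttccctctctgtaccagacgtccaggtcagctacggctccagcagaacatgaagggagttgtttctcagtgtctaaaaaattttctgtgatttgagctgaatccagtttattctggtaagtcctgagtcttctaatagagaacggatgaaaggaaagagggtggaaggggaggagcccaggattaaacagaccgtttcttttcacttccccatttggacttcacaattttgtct
Kdr: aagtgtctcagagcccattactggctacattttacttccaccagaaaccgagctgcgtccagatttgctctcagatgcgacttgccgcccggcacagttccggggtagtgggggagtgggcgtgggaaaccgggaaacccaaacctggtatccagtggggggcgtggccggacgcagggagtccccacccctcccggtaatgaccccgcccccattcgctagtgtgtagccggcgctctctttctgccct
Clec4g: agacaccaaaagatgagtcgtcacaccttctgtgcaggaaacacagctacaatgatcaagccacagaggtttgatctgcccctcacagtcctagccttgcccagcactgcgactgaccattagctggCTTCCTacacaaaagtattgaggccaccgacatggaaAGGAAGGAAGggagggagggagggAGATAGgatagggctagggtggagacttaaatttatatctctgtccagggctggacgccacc

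The Clec4g window held 1 GATA match and 3 ETS matches, of which a pair overlap. Stab1 held 2 ETS matches and Stab2 held 1, while the Fcgr2b and Kdr windows held none of these letters. No E-box lay in any of the 5 windows. Among 32851 RefSeq promoter windows of 250 bases, 6.02% held the E-box, 26.5% the GATA motif and 39.2% the ETS motif. A match is only a run of letters, and the absence of one says nothing of the factor.

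Levels are compared between genes per length, as the RPKM values that the authors deposited. Clec4g, a C-type lectin also called LSECtin, was the highest of the 10 in all 4 groups at 5 months, with a mean of 16.7 RPKM in WT (SD 7.37, n = 6), 20.6 in MycKO, 14.4 in MlxKO and 14.9 in DKO. Pecam1, the junction protein CD31 of all endothelium, was the lowest in each of these groups, at 2.86 to 3.61 RPKM. In WT the order below Clec4g was Lyve1 (9.11), Oit3 (8.27), Dnase1l3 (6.55), Gpr182 (5.55), Fcgr2b (4.66), Stab1 (4.15), Stab2 (3.50) and Kdr (3.15). Each step in that order was smaller than the larger of the 2 SDs except the step from Clec4g to Lyve1, which was 1.02 times it. In old WT the mean RPKM was highest for Fcgr2b (14.8, SD 5.23, n = 5) and lowest for Lyve1 (1.06, SD 0.499). The step down to Lyve1 was 2.66 times the larger SD, so Lyve1 stood below all other members there. Levels were not set across the 2 tables, since their gene models differ. In the adenomas the mean RPKM was 17.2 for Fcgr2b, 10.1 for Clec4g, 9.09 for Pecam1 and 4.02 for Lyve1. Scaling matters there: Fcgr2b, Gpr182 and Kdr had a higher mean in adenomas than in old WT as RPKM (Gpr182 8.67 against 8.03, Kdr 4.83 against 4.37) but a lower one as CPM with TMM factors, so the sign of their difference depends on the scaling.

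At 5 months none of the 10 genes passed the test after loss of Myc or of Mlx alone, and Fcgr2b and Kdr rose in the double knockout. Summed over the members, WT libraries ran from 273 to 403 CPM (median 314), MycKO from 277 to 460 (median 349), MlxKO from 254 to 452 (median 347) and DKO from 215 to 417 (median 404). The groups overlapped, while DKO 1, 3 and 5 lay above the highest WT library. In bulk tissue, fewer cells of a type and less RNA per cell cannot be told apart. A gene was called at an adjusted p under 0.05 in edgeR's quasi-likelihood test, with sex in the fit and Benjamini-Hochberg adjustment over 13397 genes.

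**Figure D1:**
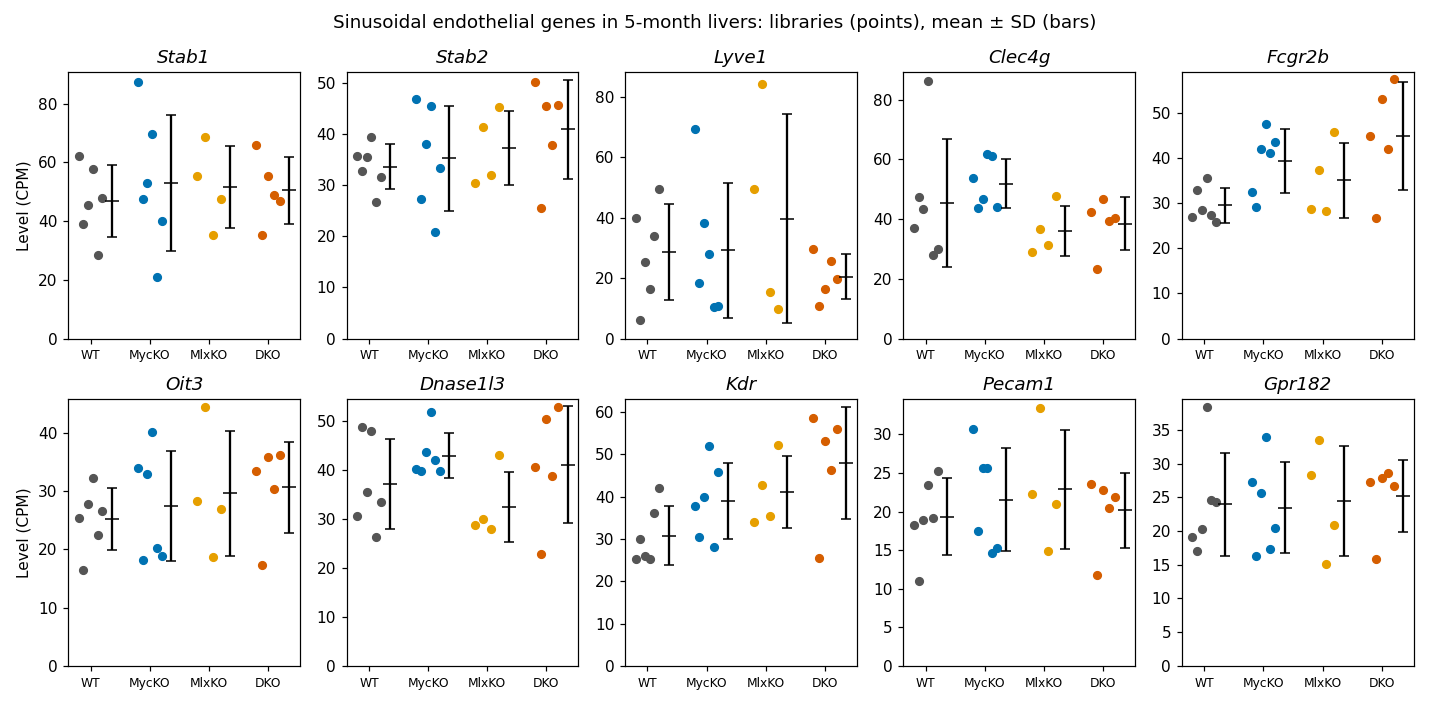
Levels (CPM, linear axes from 0) of the 10 genes in the 21 libraries at 5 months; points are libraries and black bars the mean ± SD of each group. Fcgr2b and Kdr lay higher in 4 of 5 DKO libraries than in any WT library, and Lyve1 spread widely in every group.

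In MycKO against WT 0 of the 10 members were called, where 0.0896% of all genes were. By DESeq2 there were likewise 0, and 1 member, Fcgr2b, had an unadjusted p under 0.05, as 7.67% of genes did. The median log2 fold change of the members was 0.16, against 0.00099 over all genes. It was 0.087 in males only and -0.044 without MycKO 1. In MlxKO 0 were called by edgeR or DESeq2 and 0 had an unadjusted p under 0.05, against 1.69% and 22.1% of all genes. There the median was 0.29 against -0.02 over all genes. It was 0.089 without MlxKO 2, 0.17 without WT 2, WT 5 and MycKO 5, and 0.19 with no sex term. In DKO 2 of 10 were called, both higher, where 18.5% of all genes were called and 7.58% were called higher. The same 2 had an unadjusted p under 0.05, as 35% of genes did, and DESeq2 also called 2. The median was 0.25, against -0.02 over all genes, and it was 0.39 without DKO 2 and 0.13 with no sex term. The 2 calls are a share of the members close to the share of all genes called in either direction.

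Fcgr2b encodes the inhibitory Fc receptor with which sinusoidal endothelium takes up small immune complexes, and B cells and macrophages carry it too. The DKO libraries held 44.9, 26.7, 53.2, 42.0 and 57.6 CPM. WT ran from 25.9 to 35.7 CPM with a median of 27.9. All DKO libraries but DKO 2 lay above every WT library. The log2 fold change was 0.68 (SE 0.18, adjusted p = 0.0141), and the mean rose from 29.6 ± 3.86 to 44.9 ± 11.9 CPM (SD, n = 6 and 5). The call held under all 18 alternative settings, with an adjusted p of up to 0.049. Without DKO 2 the change was 0.82. In MycKO, Fcgr2b ran from 29.2 to 47.5 CPM with a median of 41.6, and in MlxKO the libraries held 28.7, 37.4, 28.4 and 45.8 CPM. Both groups overlapped WT, and the fold changes were 0.41 (SE 0.16, adjusted p = 0.555) and 0.33 (SE 0.19, adjusted p = 0.313).

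Kdr encodes VEGFR2, the main signalling receptor for VEGF on endothelial cells. In DKO it stood at 58.6, 25.6, 53.2, 46.3 and 56.0 CPM. WT ran from 25.2 to 42.1 CPM with a median of 28.0. Again DKO 2 alone fell within the WT range. Kdr rose by 0.64 on the log2 scale (SE 0.21, adjusted p = 0.0417), from 30.8 ± 6.93 to 47.9 ± 13.3 CPM (SD, n = 6 and 5). This call was the less stable. It was lost in males alone (0.52, adjusted p = 0.13), in a fit of the 2 groups alone (0.52, adjusted p = 0.141) and without WT 2, WT 5 and MycKO 5 (0.69, adjusted p = 0.087). Leaving out WT 1, 2, 3 or 4 or DKO 1, 3, 4 or 5 also raised the adjusted p above 0.05, to at most 0.0992, with fold changes of 0.56 to 0.66. MycKO (28.2 to 51.9 CPM, median 39.0) and MlxKO (33.9, 42.8, 35.4 and 52.3 CPM) overlapped WT, with fold changes of 0.34 (adjusted p = 0.717) and 0.42 (adjusted p = 0.275).

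The authors' deposited table likewise lists Fcgr2b and Kdr as different between WT and DKO, with adjusted p-values of 0.0184 and 0.0376. No other member passed 0.05 in the authors' deposited table for the 5-month livers.

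**Figure D2:**
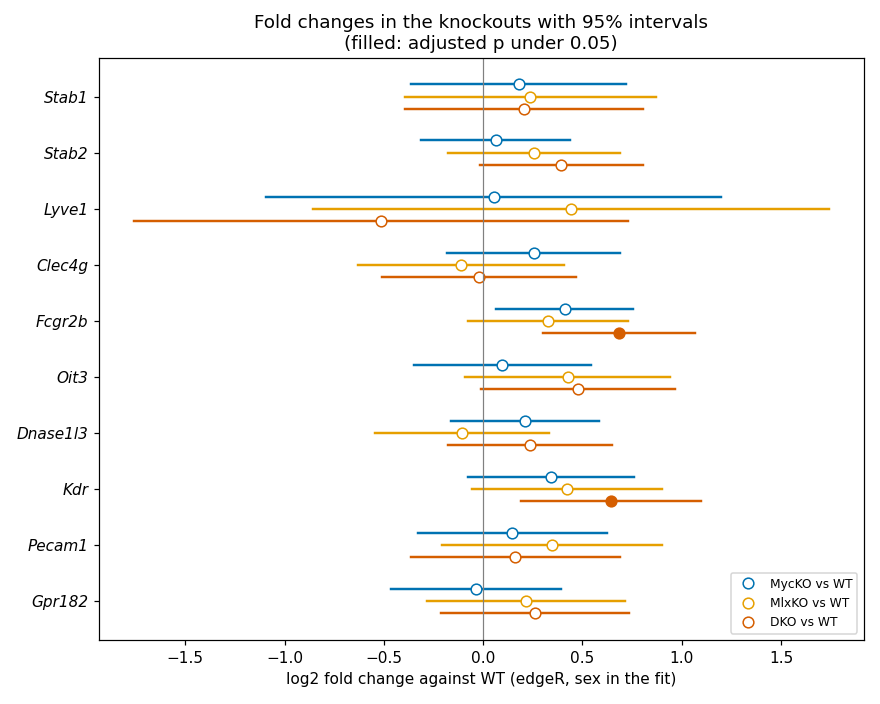
Log2 fold changes of the 10 genes against WT in MycKO, MlxKO and DKO (edgeR, sex in the fit), with 95% intervals. The filled points, for calls, are Fcgr2b at 0.68 and Kdr at 0.64 in DKO, and every interval in MlxKO includes 0.

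Stab1 and Stab2 are the scavenger receptors stabilin-1 and stabilin-2, which clear hyaluronan and modified proteins. Stab2 in DKO was 50.2, 25.5, 45.6, 37.9 and 45.7 CPM, against 26.8 to 39.4 CPM with a median of 34.1 in WT. A majority of the DKO libraries lay above all WT libraries, and the fold change was 0.39 with a 95% interval of -0.02 to 0.81 (adjusted p = 0.153). For Stab1 the DKO libraries (35.2 to 66.1 CPM) and WT libraries (28.4 to 62.1 CPM) covered almost the same range. Its fold change was 0.20, with an interval of -0.39 to 0.80. The gene models of Stab1 and Gpr182 overlap Nt5dc2 by 112 bases and Zbtb39 by 74 bases on the opposite strand, and without strand, which the sources used here do not give, reads there cannot be told apart.

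Oit3, a secreted zona pellucida domain protein, had a pattern like that of Stab2. Its DKO libraries held 33.5, 17.2, 35.8, 30.3 and 36.2 CPM, and WT ran from 16.4 to 32.2 CPM with a median of 26.0. The groups overlapped, and the fold change was 0.48 (interval -0.01 to 0.96, adjusted p = 0.147). Dnase1l3, a secreted DNase that digests chromatin in blood, differed from WT by 0.24 in DKO (adjusted p = 0.41), 0.21 in MycKO (adjusted p = 0.841) and -0.11 in MlxKO (adjusted p = 0.791). For Gpr182, a scavenging chemokine receptor, the 3 fold changes were 0.26, -0.04 and 0.21, and for Pecam1 they were 0.16, 0.15 and 0.35, with adjusted p-values of at least 0.425 in all 6. Clec4g had fold changes of -0.02 in DKO, 0.25 in MycKO and -0.11 in MlxKO (adjusted p of at least 0.819). The 95% intervals of these 4 genes ran from -0.63 at the lowest to 0.90 at the highest.

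Lyve1, a hyaluronan receptor of sinusoidal and lymphatic endothelium, varied most. It ran from 6.003 to 49.6 CPM in WT (median 29.6) and from 10.3 to 69.2 CPM in MycKO (median 23.2). In MlxKO it was 49.5, 84.3, 15.5 and 9.67 CPM, and in DKO 29.7, 10.8, 16.5, 25.7 and 19.9 CPM. The range within WT was 8.26-fold, wider than any difference between group means. The SD of its log2 deviations from the group means was 0.98, against a median of 0.31 over all genes tested. Its fold changes were 0.05 in MycKO, 0.44 in MlxKO and -0.51 in DKO, with adjusted p-values of 0.991, 0.702 and 0.561.

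The double knockout did not differ detectably from either single knockout in these genes. Against MycKO 0 of 10 members were called by edgeR or DESeq2, with 0 at an unadjusted p under 0.05, where 11.9% and 29.3% of all genes were. Member fold changes ran from -0.57 to 0.38 with a median of 0.15. Against MlxKO 0 were called by either tool and 0 had an unadjusted p under 0.05, where 0.0373% and 6.02% of genes did. Fold changes there ran from -0.95 to 0.36, with a median of 0.07. The test of whether the effect of losing both genes departs from the sum of the single effects also called 0 members by either tool. It called 0% of genes by edgeR, and 3.5% had an unadjusted p under 0.05, among them 0 members. These comparisons share libraries with the ones against WT.

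The members moved together from library to library within a group. DKO 2 had the lowest value of its group for all 10 genes. MycKO 2 and MlxKO 3 lay below their group medians for all 10, and MycKO 4 and MlxKO 2 above for all 10. Over the 21 libraries, deviations from the group mean correlated with the mean of the other members at r = 0.90 for Oit3, 0.85 for Stab2, 0.82 for Gpr182 and 0.82 for Pecam1. They correlated least for Lyve1 (0.37) and Clec4g (0.51). All points share library and scaling, and these values are a description. Sex was not removed from these deviations. MycKO 3 and MycKO 4, the female MycKO libraries, lay above the group median for 9 and 10 members. Female means exceeded male means for every member in MycKO, and in WT for all but Lyve1 and Kdr. The part of sex was not tested. DKO 2 also had the lowest summed Kupffer cell markers of its group, 145 CPM against 247 to 275 CPM in the other DKO libraries, while its hepatocyte markers (99429 CPM) lay within their range of 76649 to 110550 CPM. Its pan-endothelial (206 CPM) and lymphocyte (1.37 CPM) sums were also the lowest. Its stellate sum (396 CPM) lay within the range of the others, and its cholangiocyte sum was the highest, 105 CPM against 37.7 to 92.9 CPM. The part of tissue sampling in this was not tested.

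**Figure D3:**
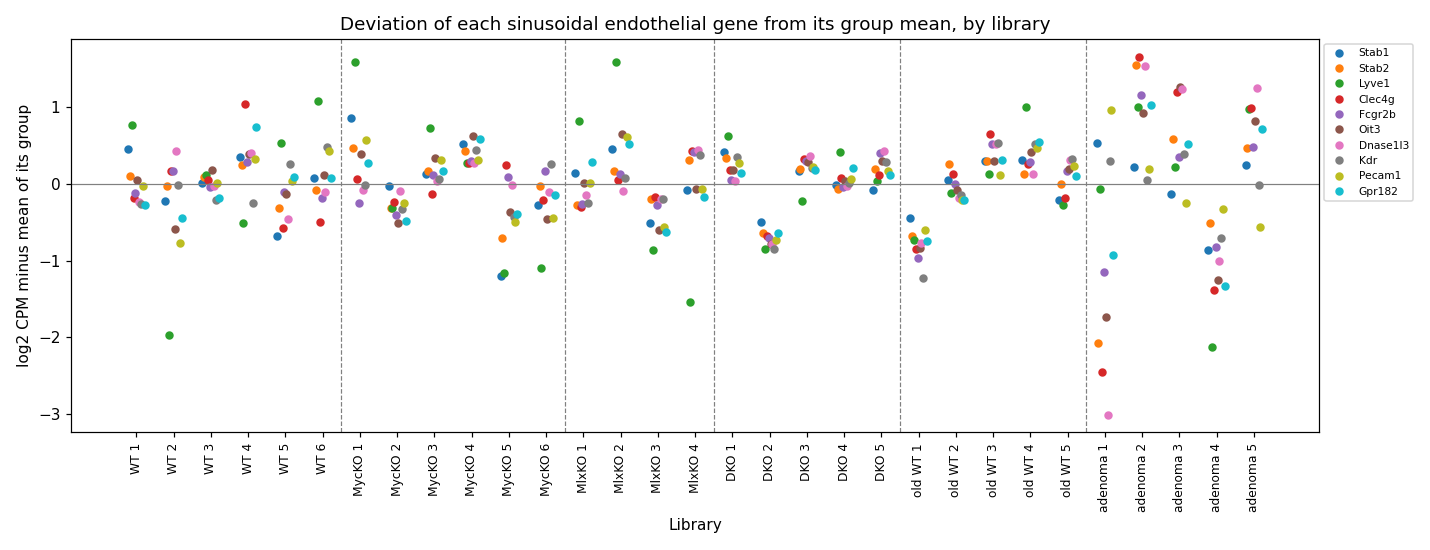
Log2 CPM of each of the 10 genes minus its group mean, for all 31 libraries; dashed lines separate the groups. The 10 points of DKO 2 and of old WT 1 all lie below 0, and at 5 months Lyve1 had the widest spread (SD 0.98).

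Outside the 10 genes, the genes whose levels followed the members most closely over the 21 libraries were Bmp2 (Pearson r = 0.90), Cyp4b1 (0.88), Bmp6 (0.88), Ehd3 (0.88), Nkrf (0.88), Jam2 (0.86), Afap1l1 (0.86), Cyyr1 (0.85), Eng (0.83) and Cd300lg (0.83). Likeness was taken between a gene's log2 CPM and the mean of the standardised members, both as deviations from the group means. Bmp2 and Bmp6 encode ligands that sinusoidal endothelium sends to hepatocytes to raise hepcidin, and Eng is the endothelial co-receptor endoglin.

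Of 12 further sinusoidal genes, 3 rose in DKO and 0 fell, where 7.58% of all genes were called higher. Bmp2 rose from 15.1 ± 2.32 to 23.4 ± 6.77 CPM (SD, log2 0.74, adjusted p = 0.0187). Bmp6 rose by 0.62 (adjusted p = 0.0299) and Maf, a transcription factor of sinusoidal identity, by 0.56 (adjusted p = 0.0459). In all 3 the DKO and WT libraries overlapped, and DKO 2 had the lowest DKO value. The median of the 12 was 0.54, with 11 above 0. In MycKO and MlxKO 0 of the 12 were called by edgeR, 3 and 2 had an unadjusted p under 0.05, and the medians were 0.40 and 0.34. Ehd3, a membrane-trafficking gene and the most abundant of the list, had fold changes of 0.17 (adjusted p = 0.879) and 0.31 (adjusted p = 0.352) there. Mrc1, the mannose receptor, had 0.45 (adjusted p = 0.658) and 0.37 (adjusted p = 0.411).

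Of 18 pan-endothelial genes, 1 rose in DKO, Calcrl, the adrenomedullin receptor (0.63, adjusted p = 0.038), and 0 fell, with a median of 0.18. Over all genes, 7.58% were called higher and 10.9% lower. Cdh5, encoding VE-cadherin of endothelial junctions, was 22.7 ± 4.02 CPM in DKO and 20.1 ± 5.35 in WT (SD, adjusted p = 0.619). In MycKO and MlxKO 0 of 18 were called, with medians of 0.12 and 0.14. Among 9 tested genes of capillaries and larger vessels, Col4a2, a basement membrane collagen, rose in DKO (0.71, adjusted p = 0.0204) and Cd34 fell by 0.98 (adjusted p = 0.0312).

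Of 16 tested genes of VEGF, angiopoietin and BMP signalling, 3 rose in DKO and 0 fell. Over all genes, 18.5% were called in either direction and 7.58% were called higher. Kdr belongs to this pathway. Nrp1, the neuropilin that binds VEGF with Kdr, rose from 31.2 ± 9.39 to 68.4 ± 19.4 CPM (SD, log2 0.97, adjusted p = 0.0224). Nrp2 rose by 0.90 (adjusted p = 0.0117), and it also rose in MlxKO, by 0.99 (adjusted p = 0.0389). Bmp10, a ligand of the endothelial receptor ALK1, was at 3.57, 4.43, 5.15, 5.59 and 5.64 CPM in DKO and at 1.78 to 2.71 CPM in WT. The groups did not overlap, as for 9.93% of all genes, and Bmp10 rose by 1.47 (adjusted p = 9.48e-05). It rose against MycKO too, by 1.01 (adjusted p = 0.00309). Vegfd rose (1.43, adjusted p = 0.0273) and Acvrl1, which encodes ALK1, fell by 0.85 (adjusted p = 0.0159) in that comparison.

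Markers of other liver cells also moved. In DKO 7 of 12 Kupffer cell genes fell against WT and 0 rose (median -1.0), where 10.9% of all genes were called lower, and summed levels were 145 to 275 CPM against 197 to 537 CPM in WT. Against MycKO 9 of 12 fell, where 7.52% of all genes did. In MlxKO 0 were called by edgeR, but all 12 fold changes were negative (median -0.68) and 9 had an unadjusted p under 0.05. Kupffer cells also carry Fcgr2b. In stellate cell genes 2 of 10 rose in DKO, Lrat (0.98) and Hhip (2.06), where 7.58% of all genes were called higher. In hepatocyte genes 3 of 10 fell, where 10.9% of all genes were called lower. The part of cell composition in the rise of Fcgr2b and Kdr was not tested.

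The old set compared adenomas with liver of old WT mice, which were not fasted. By edgeR with sex in the fit, 0 of 10 members were called, where 16.4% of 13954 genes were, and 2 had an unadjusted p under 0.05, as 33.2% of genes did. DESeq2 called both of these, Lyve1 (adjusted p = 0.014) and Pecam1 (adjusted p = 0.0193), as higher. EdgeR also called 2 members when the sex term, which takes adenoma 5 as male, was left out. The median log2 fold change of the members was -0.20, against 0.04 over all genes. It turned to 0.037 without old WT 3. It was -0.023 without adenoma 1, -0.031 without adenoma 4, -0.11 without old WT 4, -0.33 without adenoma 5 and -0.44 without adenoma 2. Summed levels were 221, 469, 350, 140 and 346 CPM in adenomas 1 to 5 and 172 to 394 CPM in old WT. The adenomas differed more among themselves than from old WT. Adenomas 1 and 4 were low and adenoma 2 was high.

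Clec4g, Dnase1l3, Oit3 and Gpr182 were low in adenomas 1 and 4. Clec4g was at 3.52 and 7.37 CPM there, at 60.6, 44.2 and 38.1 CPM in adenomas 2, 3 and 5, and at 23.8, 46.7, 66.8, 51.0 and 37.7 CPM in old WT. Dnase1l3 was at 3.20 and 12.7 CPM in adenomas 1 and 4, at 73.9, 60.4 and 60.9 CPM in the others, and at 31.2 to 76.1 CPM in old WT. For both genes adenomas 1 and 4 lay below every old WT liver and the other 3 adenomas within their range. Oit3 was at 3.81, 24.0, 30.4, 5.30 and 22.3 CPM in adenomas 1 to 5, against 13.5 to 32.0 CPM in old WT. Gpr182 was at 6.67, 25.6, 18.1, 5.04 and 20.7 CPM, against 10.5 to 25.7 CPM. These have the same pattern. The group fold changes were -0.60 (Clec4g), -0.35 (Dnase1l3), -0.50 (Oit3) and -0.20 (Gpr182), with adjusted p-values of at least 0.563, and the sign for Gpr182 was the opposite as mean RPKM. Adenomas 1 and 4 are named here from their values and are no group of the study, so they were not tested.

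Stab2 and Fcgr2b were low in the same 2 adenomas. Stab2 was at 6.87, 84.5, 43.2, 20.4 and 39.9 CPM in adenomas 1 to 5 and at 22.7 to 44.5 CPM in old WT. Fcgr2b was at 10.5, 51.7, 29.5, 13.2 and 32.3 CPM, and at 15.0 to 41.8 CPM in old WT. Adenoma 2 exceeded all old WT livers in both. The lowest to highest adenoma spanned 12.3-fold for Stab2 and 23.1-fold for Dnase1l3, against 1.96-fold and 2.44-fold in old WT.

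Pecam1 and Stab1 did not follow. Pecam1 was at 66.7, 39.2, 28.8, 27.3 and 23.4 CPM in adenomas 1 to 5, and at 10.7, 13.9, 17.5, 22.3 and 19.1 CPM in old WT. Every adenoma lay above every old WT liver, as for 18.1% of all genes in either direction. The fold change was 1.04 (SE 0.35, adjusted p = 0.0663), so the gene missed the threshold. Without adenoma 5, whose counts go against its sex label, it was 1.39 (adjusted p = 0.08), and without a sex term 1.15 (adjusted p = 0.0165). Stab1 was at 78.9, 64.0, 49.8, 30.3 and 65.2 CPM, against 29.5 to 49.8 CPM in old WT (0.47, adjusted p = 0.244). Adenoma 1, lowest for Stab2, Clec4g and Dnase1l3, was highest for Pecam1 and Stab1.

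Lyve1 was at 8.18, 17.2, 10.0, 1.96 and 16.8 CPM in adenomas 1 to 5, and at 2.08, 3.18, 3.78, 6.90 and 2.86 CPM in old WT. All adenomas but adenoma 4 exceeded every old WT liver. The fold change was 1.67 (SE 0.54, adjusted p = 0.0563), and it was called without adenoma 4 (1.89, adjusted p = 0.00951) and without a sex term (1.52, adjusted p = 0.0466). Without adenoma 5 the adjusted p was 0.27. The authors' deposited table lists Lyve1 and Pecam1 as different between old WT and adenoma, with adjusted p-values of 0.0058 and 0.000414. Kdr stayed within the old WT range of 12.6 to 42.8 CPM in all 5 adenomas, at 16.6 to 35.4 CPM (-0.26, interval -1.07 to 0.55, adjusted p = 0.632, with the opposite sign as mean RPKM).

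**Figure D4:**
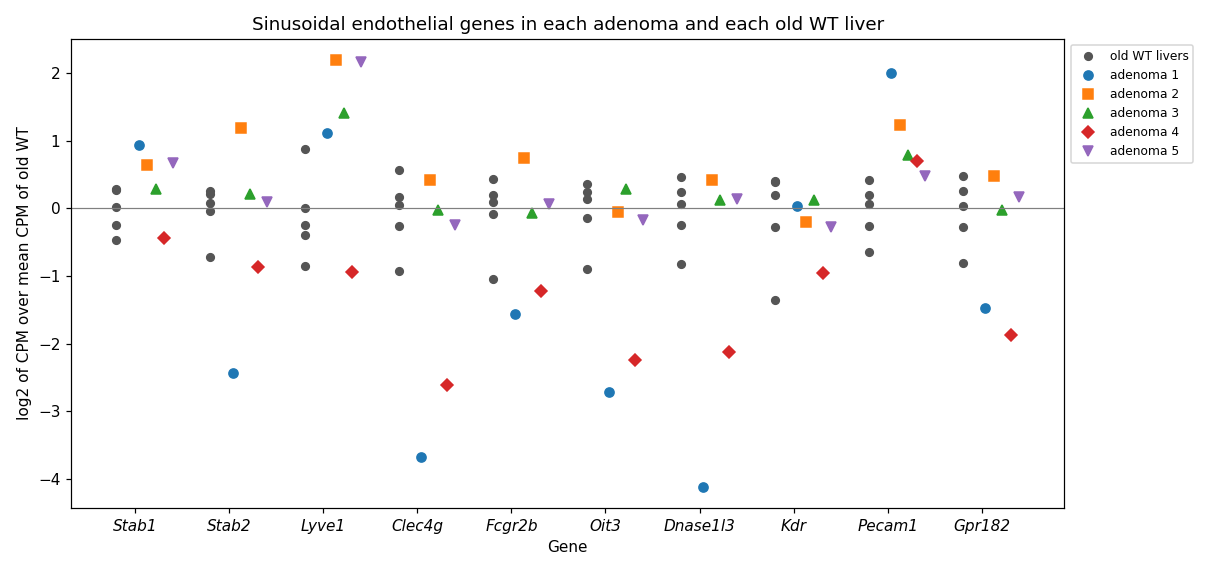
Log2 ratio of each library's CPM to the mean CPM of the 5 old WT livers, for each of the 10 genes in the old set; grey points are old WT livers and coloured symbols the adenomas. Adenomas 1 and 4 lie below all old WT livers for Stab2, Clec4g, Fcgr2b, Oit3, Dnase1l3 and Gpr182, and all 5 adenomas lie above them for Pecam1.

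In the old set, deviations from the group means over 10 libraries correlated with the mean of the other members at r = 0.97 for Gpr182, 0.93 for Fcgr2b, 0.87 for Oit3, 0.84 for Lyve1 and Clec4g, 0.74 for Dnase1l3 and 0.72 for Stab2. Kdr (0.63), Stab1 (0.51) and Pecam1 (0.02) were the lowest. Old WT 1 was the lowest old WT liver for all 10 genes. The genes most like the members over these 10 libraries were Cyp4b1 (r = 0.99), Tbc1d2b, Calcrl, Oas3, Ntn4, Rgmb, Aqp1, C1qtnf1, Tfpi and Fcna (0.96). Cyp4b1 was thus among the 10 genes most like the members in both sets.

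Of 10 tested genes of capillaries and larger vessels, 4 were called higher in the adenomas and 0 lower, where 8.74% of all genes were called higher, and the median was 1.81 with all 10 above 0. Cd34 was at 46.4, 12.1, 9.96, 13.9 and 6.53 CPM in adenomas 1 to 5 and at 1.004 to 2.43 CPM in old WT, and it rose by 2.74 (adjusted p = 0.00992). The basement membrane collagen Col4a1 was at 278, 90.1, 117, 128 and 80.1 CPM, against 26.1 to 44.5 CPM in old WT, and it rose by 1.92 (adjusted p = 0.00888). Col4a2 rose by 1.97 (adjusted p = 0.00837) and Vcam1 by 1.71 (adjusted p = 0.0314). None of these 4 overlapped between the groups, as for 18.1% of all genes in either direction. Stellate cells and other cells also make these collagens and Vcam1. The summed list was at 264 to 731 CPM in the adenomas and 107 to 190 CPM in old WT.

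Of 18 pan-endothelial genes, 1 rose in the adenomas, the arterial transcription factor gene Sox17 (1.26, adjusted p = 0.0492), and 0 fell, where 8.74% of all genes were called higher. The median was 0.49, with 14 of 18 above 0 and 6 at an unadjusted p under 0.05. Cdh5 was at 60.5, 58.7, 37.2, 22.5 and 25.7 CPM, against 11.5 to 36.2 CPM in old WT (adjusted p = 0.379). The groups overlapped. Adenoma 1 thus had the second-highest summed pan-endothelial level of the set, 455 CPM, beside a sinusoidal sum of 221 CPM. Of that sinusoidal sum, Stab1 held 78.9 CPM and Pecam1, a gene of all endothelium, 66.7 CPM, more than any other member.

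**Figure D5:**
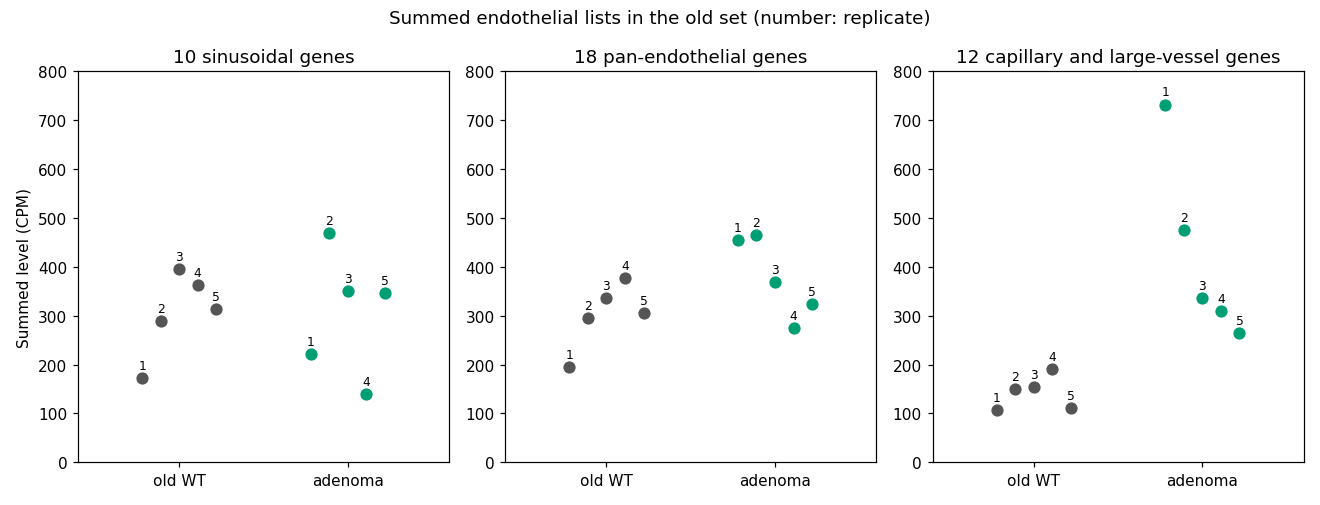
Summed CPM of 3 endothelial gene lists in the old set, each point a library with its replicate number. The sinusoidal sums of adenomas (140 to 469 CPM) and old WT livers (172 to 394 CPM) overlap, while the capillary and large-vessel sums of the adenomas (264 to 731 CPM) all lie above those of old WT (107 to 190 CPM).

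Among the 11 further sinusoidal genes tested, 1 fell in the adenomas and 0 rose, where 7.68% of all genes were called lower. Gata4 was at 10.8, 17.99, 11.5, 9.38 and 22.4 CPM in adenomas 1 to 5 and at 24.3 to 34.5 CPM in old WT. The groups did not overlap, as for 18.1% of all genes in either direction, and Gata4 fell by 0.94 (log2, adjusted p = 0.0209). Hepatocyte precursors and stellate cells also express this gene. Ehd3 was at 15.7 and 16.3 CPM in adenomas 1 and 4 and at 50.9 to 65.7 CPM in the others, against 43.7 to 88.3 CPM in old WT (adjusted p = 0.199). Of 15 tested VEGF, angiopoietin and BMP genes, Acvrl1 rose by 1.44 (adjusted p = 0.00797) and Nrp2 fell by 1.68 (adjusted p = 0.00851). Over all genes, 8.74% were called higher and 7.68% lower. The groups overlapped in neither gene, again as for 18.1% of all genes.

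Markers of some other cell types moved with these values, and others did not. Clec4f, a Kupffer cell receptor, was at 5.34 and 13.1 CPM in adenomas 1 and 4, at 326, 114 and 113 CPM in adenomas 2, 3 and 5, and at 45.8 to 122 CPM in old WT. In all, 6 of 12 Kupffer genes lay below every old WT liver in adenoma 1 and 7 in adenoma 4, while C1qb, C1qc and Cd68 lay above all in adenoma 1 and Cd68 in adenoma 4. The summed Kupffer level was 322, 1875, 624, 232 and 707 CPM in adenomas 1 to 5, against 199 to 589 CPM in old WT. As a group, 1 of 12 was called higher, Cd68 (1.65, adjusted p = 0.0149), where 8.74% of all genes were called higher. Adenoma 2, high for the sinusoidal genes, exceeded all old WT livers for all 12 Kupffer, all 8 lymphocyte and 7 of 10 stellate markers. In adenoma 1, all 6 cholangiocyte and 4 of 8 lymphocyte genes lay above every old WT liver, and 0 lay below. Of 10 stellate genes there, 3 lay below and 3 above. In adenoma 4, 8 of 10 stellate and 2 of 6 cholangiocyte genes lay below every old WT liver, with 0 above. Of 8 lymphocyte genes there, 1 lay below and 2 above. Of 10 hepatocyte genes only Alb was called, and it fell by 3.81 (adjusted p = 0.000896). The summed hepatocyte markers were 37626 to 84602 CPM in the adenomas and 120535 to 169569 CPM in old WT, but without Alb the groups overlapped, at 35767 to 78337 CPM and 52395 to 65589 CPM. The part of cell composition in the adenoma values was not tested.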

How the data were processed

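Poly(A) RNA-seq of 31 mouse livers or adenomas was analysed from 2 tables. The authors deposited raw counts per gene, which were used for all tests, and RPKM values, used here only to rank genes per length. They also deposited their own log2 fold changes and p-values, quoted only where their table is named. Per the submitters' processing notes, reads were placed on GRCm38.p6. The sources used here give no aligner, counter or strand setting. Total counts per library limit the precision to the counting error of a library and the spread between libraries.

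Each table was fitted whole with edgeR 4.0.16 in R 4.3.3 (quasi-likelihood test, TMM factors, genes kept by filterByExpr with a minimum count of 10, terms for group and sex), with Benjamini-Hochberg adjustment over all genes tested and a threshold of 0.05. CPM values use TMM-scaled library sizes. Residual degrees of freedom were 16 at 5 months and 7 in the old set. DESeq2 1.42.0 was an alternative. Others were RLE factors, no filter, no sex term, males only, fewer libraries or groups in the fit, halved adenoma counts, and leaving out each library. Python 3.11.15, pandas 2.3.3 and matplotlib 3.10.9 served for summaries and plots.

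The labels do not say that libraries of a group came from separate animals, so a p-value covers only the spread among the libraries sequenced, which may be technical; no pair agreed within counting noise. The members and all 13 gene lists were chosen with earlier results of these data known. Named were all members, up to 4 called genes with the smallest p per list (or, with none called, up to 2 with the highest mean CPM), and the 10 genes most like the members in each set. Cdh5, Clec4f, Ehd3 in the adenomas and further called genes were chosen after their values were seen. On simulated counts for DKO against WT (13263 genes), 61.6% of 99 genes changed by 1 on the log2 scale were called, and 94% of 100 changed by 2. For adenoma against old WT (13804 genes) these were 26% of 100 and 74.2% of 97. Unchanged genes gave 8 calls in the first simulation and 4 in the second. Only the genes counted here were changed, and no sex effect was simulated. In the data 18.5% and 16.4% of genes were called, so the adjustment differs and these rates need not hold there.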

Additional observations from a re-analysis of the deposited data

Results flagged for a closer look

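In 6 of 60 groups of a member's values, 1 library stood far from the others of its group; chance alone flags about 1 in 20 groups. Clec4g reached 86.2 CPM in WT 4, with the next WT library at 47.3 CPM. Gpr182 was at 38.4 CPM in the same library, with the next at 24.6 CPM. In DKO 2, Pecam1 was at 11.8 CPM and Gpr182 at 15.8 CPM, where the next lowest DKO libraries held 20.5 and 26.7 CPM. Dnase1l3 was at 51.7 CPM in MycKO 4 (next 43.7 CPM) and at 43.1 CPM in MlxKO 4 (next 30.0 CPM).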

How the results depend on the processing

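Of 690 log2 fold changes of members under alternative settings in 4 comparisons, 650 kept their sign, and none of the 40 that changed it was called. Fcgr2b in DKO was called in all 18 alternatives (0.58 to 0.82, adjusted p 0.00303 to 0.049) and Kdr in 7 of 18. The number of members called in DKO fell from 2 to 1 in males only, without WT 2, WT 5 and MycKO 5, and with only the 2 groups compared, and it was 1 to 2 when libraries were left out in turn. In the adenomas it rose from 0 to 2 with DESeq2, to 1 with no filter, and to 2 with no sex term, and it was 0 to 1 when libraries were left out in turn. All counts in the other 5 comparisons were 0 under the alternatives. The cause of these differences was not tested.

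In DKO, Clec4g was 0.11 in males only and 0.11 with 2 groups, and without WT 2, WT 5 and MycKO 5 Pecam1 was -0.018 and Stab1 -0.074. In MlxKO, Clec4g was 0.022 in males only and 0.024 with 2 groups, and Stab1 was -0.038 without those 3 libraries. In MycKO, Gpr182 was 0.0036 without them and Lyve1 -0.25 in males only. In the adenomas, Stab2 was 0.0075 with no filter, 0.065 with no sex term and 0.020 with halved counts. With libraries left out in turn, signs changed in DKO for Clec4g (-0.12 to 0.11). In MlxKO they changed for Dnase1l3 (-0.27 to 0.055) and Lyve1 (-0.23 to 0.77). In MycKO they changed for Gpr182 (-0.14 to 0.083), Lyve1 (-0.56 to 0.26), Oit3 (-0.052 to 0.17), Pecam1 (-0.036 to 0.27), Stab1 (-0.092 to 0.34) and Stab2 (-0.084 to 0.17). In the adenomas they changed for Fcgr2b (-0.50 to 0.044), Gpr182 (-0.46 to 0.030) and Stab2 (-0.42 to 0.22).

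No paired analysis was possible because the labels do not say that equal replicate numbers mark shared animals, litters or days, and the numbers only name libraries.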

Other observations

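Endothelial genes of the liver's zones and of lymphatic vessels, and markers of 2 other cell classes, were also counted. In DKO 1 of 6 pericentral endothelial genes rose, Kit (0.93, adjusted p = 0.02), and 0 of 6 periportal ones were called. Over all genes, 7.58% were called higher in DKO and 10.9% lower. Of 3 tested lymphatic genes 2 rose, Prox1 (0.65, adjusted p = 0.0268), which hepatocytes express too, and Reln (0.63, adjusted p = 0.0388). In old WT, Prox1 and Reln had means of 82.4 and 52.6 CPM. The other lymphatic genes, Pdpn, Ccl21a and Mmrn1, had 0.561, 0.294 and 0.246 CPM there. Which cells gave the 2 rises was not tested. Of 5 tested cholangiocyte genes 0 were called in DKO, with 2 at an unadjusted p under 0.05, as 35% of all genes had. Of 7 lymphocyte genes Cd8a rose (2.15) and Cd4 and Cd79a fell. In MycKO only Cd8a (3.80) was called among all 13 lists, and in MlxKO only Nrp2, where 0.0896% and 1.69% of all genes were called. In DKO against MlxKO none of the lists held a call by edgeR, where 0.0373% of all genes were called.

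In the adenomas 0 pericentral, periportal and lymphatic endothelial genes were called by edgeR, with 1, 1 and 0 at an unadjusted p under 0.05. Over all genes, 16.4% were called, 8.74% were called higher, and 33.2% had such an unadjusted p. Of 5 cholangiocyte genes 2 rose, Spp1 (3.35, adjusted p = 0.00491) and Sox9 (1.65, adjusted p = 0.0245). Among 8 lymphocyte genes Cd8a and Nkg7 rose, and among 10 stellate genes Lum rose (1.99, adjusted p = 0.0263).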
